A study of Mus musculus with 10 samples.

Results

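Binding of p65 was described at 10 genes that encode inhibitors of NF-κB signalling: Nfkbia, Nfkbib, Nfkbie, Nfkbiz, Nfkbid, Bcl3, Tnfaip3, Tnip1, Tnip3 and Cyld. They were chosen by function, as the IκB family and the A20 group of ubiquitin regulators, out of 21887 protein-coding genes. A peak was counted for a gene when it overlapped the gene body or the 10 kb on either side of it by at least 1 bp. Of 536143 peaks in 9 lists, 531 met this rule, and after merging peaks that overlapped between lists they lay in 139 of 235070 regions.

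The cells were RAW264.7, a wild-type mouse macrophage-like tumour line, and p65 was mapped by CUT&Tag, in which an antibody tethers a transposase next to the bound protein and the DNA that it cuts out is sequenced. Of 3 groups with 3 libraries each, the first received the solvent DMSO, the second DMSO with lipopolysaccharide (LPS, a bacterial cell-wall component sensed by Toll-like receptor 4), and the last LPS with skatole (a tryptophan product of gut bacteria, labelled LPS+Skatole), for 12 h and with 200000 cells per library. No group received skatole without LPS, a Blank sample without primary antibody was not analysed here, and the sources differ on whether the antibody recognised p65 or its phosphorylated form. The labels do not say whether libraries of a group came from separate cultures, so p-values measure the spread between these libraries, which may be technical.

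In resting cells IκB proteins hold NF-κB in the cytoplasm, and LPS leads to their phosphorylation and destruction, which frees p65 to enter the nucleus. Several of the genes that NF-κB then binds encode its own brakes. The classical IκBs (Nfkbia, Nfkbib and Nfkbie) recapture NF-κB, the nuclear IκBs (Nfkbiz, Nfkbid and Bcl3) adjust what bound NF-κB does, and the ubiquitin regulators (Tnfaip3, which encodes A20, its partners Tnip1 and Tnip3, and the deubiquitinase Cyld) cut the signal upstream of the IκB kinase.

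The promoters are shown because most of these genes carry a κB element, the sequence that NF-κB recognises, close to the start site. RefSeq promoter sequence of assembly GRCm38.p6, from 250 bases before to 50 bases after each start, was at hand for 9 of the 10 genes, and not for Nfkbiz. The κB consensus was searched on both strands, overlapping matches included, and was found in 8 of the 9 genes, against 5.14% of all 27025 genes in the promoter table. The narrower form GGGNNTTTCC, which overlaps the consensus in part, was found in 3 of the 9 (Nfkbia, Tnfaip3 and Cyld) against 1.89% of all genes. A match describes these letters only. In the sequences below, read 5′ to 3′ along the gene and ending at the base before the start, capitals mark the κB matches.
Nfkbia, chr12:55492648-55492827, minus strand: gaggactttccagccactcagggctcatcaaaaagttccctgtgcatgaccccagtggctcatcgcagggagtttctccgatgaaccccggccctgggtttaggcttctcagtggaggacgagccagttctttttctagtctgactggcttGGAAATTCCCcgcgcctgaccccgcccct
Nfkbie, chr17:45555520-45555699, plus strand: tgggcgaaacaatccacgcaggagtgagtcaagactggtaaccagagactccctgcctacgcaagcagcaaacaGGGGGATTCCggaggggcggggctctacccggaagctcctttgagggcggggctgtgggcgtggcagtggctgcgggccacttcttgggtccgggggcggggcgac
Nfkbid, chr7:30422156-30422405, plus strand: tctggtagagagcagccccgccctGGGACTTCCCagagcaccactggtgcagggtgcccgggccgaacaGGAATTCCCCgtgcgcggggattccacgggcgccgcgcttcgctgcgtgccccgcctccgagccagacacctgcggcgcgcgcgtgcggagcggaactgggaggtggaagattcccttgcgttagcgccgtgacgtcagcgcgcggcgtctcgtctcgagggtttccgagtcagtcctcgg
Tnfaip3, chr10:19015411-19015590, minus strand: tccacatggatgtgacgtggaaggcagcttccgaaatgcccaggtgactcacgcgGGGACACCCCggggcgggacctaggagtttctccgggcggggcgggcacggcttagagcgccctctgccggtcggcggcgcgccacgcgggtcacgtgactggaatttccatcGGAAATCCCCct
Tnip1, chr11:54962941-54963120, minus strand: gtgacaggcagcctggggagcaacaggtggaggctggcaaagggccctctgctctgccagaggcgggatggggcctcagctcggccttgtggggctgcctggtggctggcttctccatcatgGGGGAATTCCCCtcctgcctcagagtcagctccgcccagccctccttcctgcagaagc
Tnip3, chr6:65590218-65590397, plus strand: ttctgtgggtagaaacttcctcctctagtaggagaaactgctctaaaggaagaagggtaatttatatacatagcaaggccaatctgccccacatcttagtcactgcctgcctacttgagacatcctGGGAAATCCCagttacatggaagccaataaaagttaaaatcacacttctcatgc
Cyld, chr8:88696848-88697027, plus strand: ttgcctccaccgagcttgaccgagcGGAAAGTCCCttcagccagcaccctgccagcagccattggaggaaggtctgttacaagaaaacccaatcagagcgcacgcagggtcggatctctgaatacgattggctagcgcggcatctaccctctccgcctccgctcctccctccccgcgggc
Bcl3, chr7:19822741-19822770, minus strand, bases around the start: agttcagtcggcggcagGGGAAGTCCCgct
Nfkbib, chr7:28766645-28766744, minus strand: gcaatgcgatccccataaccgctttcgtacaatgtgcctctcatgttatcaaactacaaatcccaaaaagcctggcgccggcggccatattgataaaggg
The match began 29 bases before the start in Nfkbia, 106 in Nfkbie, 54 in Tnip3 and 155 in Cyld. Tnfaip3 had matches beginning 125 and 12 bases before its start. In Tnip1 overlapping matches on both strands formed a palindrome that began 58 bases before the start. Nfkbid had none at its first start and matches 226 and 181 bases before its second, while in Bcl3 the match began at base 3, counting the start as base 1. Nfkbib, shown last, had no match in this window.

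All 10 genes had a peak in every library, which 54.2% of all protein-coding genes did. A peak lay over the promoter window itself in all 9 libraries at 7 of the 9 genes with promoter sequence, against 30.6% of 17492 genes; Bcl3 had one in 8 libraries and Tnip1 in 5. Of the 139 regions, 20 (14.4%) were called in all 9 libraries, as were 5.88% of all regions, and 70 (50.4%) were called in 1 library only, as were 71.3% of all regions. Regions seen in 1 library only were 14 of 24 at Tnip1, 13 of 28 at Tnip3, 10 of 14 at Cyld and 8 of 12 at Nfkbib.

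Depth differed between groups and touches every count of peaks below. The lists held 37551 to 43450 peaks in the DMSO group, 55637 to 63498 in the LPS group and 78136 to 80153 in the LPS+Skatole group. The genome background recovered from the lists, in fragments per position, was 1.28 ± 0.168 (SD, n = 3), 2.29 ± 0.0594 and 2.33 ± 0.0675 in the same order. The weakest listed peak had a summit of 6.44 to 7.34 times that background in the DMSO libraries and 4.59 to 4.94 times in the others. Peaks were also judged against the local background, and 1 listed near the end of its list (Tnip3, chr6:65593617-65594373, DMSO library 3, top 99.2%) had a summit of 34.6 times the genome background, so a position without a peak can hold a summit well above these minimums. As a check of the cell type, 8 of 8 macrophage marker genes had a peak in all 9 libraries, against 1 of 3 lymphocyte, 0 of 3 chondrocyte and 0 of 2 hepatocyte markers. Each of these markers had a peak in at least 1 library, and this is a statement on binding and not on expression.

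The number of peaks at the 10 genes together was 43.7 ± 8.08 (SD, n = 3) under DMSO, 61 ± 3.61 under LPS and 72.3 ± 7.02 under LPS+Skatole. Windows of Nfkbib (Sars2, Ccer2 and Sirt2), Nfkbid (Tyrobp, Hcst and Aplp1), Nfkbie (Tmem151b, Slc35b2 and Hsp90ab1), Nfkbiz (Nxpe3), Tnip1 (Gpx3) and Cyld (Nod2) also hold the neighbours named, whose peaks are counted in. Single libraries had 39, 53 and 39 under DMSO, 57, 64 and 62 under LPS, and 79, 65 and 73 under LPS+Skatole. The groups did not overlap from one to the next, and each step was in the direction of the list lengths. Per 10000 peaks of the own list, the genes held 10.7 ± 1.36, 10.3 ± 0.630 and 9.16 ± 0.863 peaks. With every list cut to the length of the shortest, the ratio of the means fell from 1.40 to 1.03 for LPS against DMSO, from 1.19 to 1.01 for LPS+Skatole against LPS and from 1.66 to 1.04 for LPS+Skatole against DMSO.

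**Figure D1:**
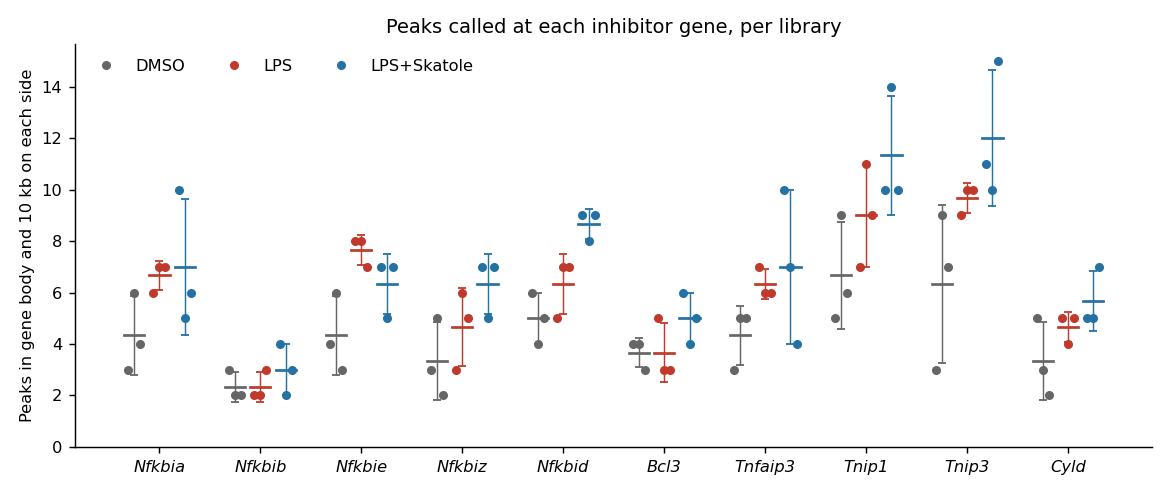
Peaks in the gene body and 10 kb on each side (vertical axis) for each inhibitor gene, with a point per library, a bar for the mean and whiskers for the SD (n = 3). On these full lists, Nfkbie and Tnfaip3 are the genes with every LPS library above every DMSO library, and Nfkbid is the gene with every LPS+Skatole library above every LPS library.

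Among the classical IκBs, Nfkbie had more peaks in every LPS library than in any DMSO library, with 4, 6 and 3 peaks under DMSO, 8, 8 and 7 under LPS, and 7, 5 and 7 under LPS+Skatole. In the gene body of Nfkbie alone these groups overlapped, with 1, 1 and 1 under DMSO and 1, 2 and 2 under LPS. They also overlapped by summits inside the window (3, 6 and 2 against 7, 7 and 6). Nfkbia had 3, 6 and 4 peaks under DMSO, 6, 7 and 7 under LPS, and 10, 5 and 6 under LPS+Skatole, and all neighbouring groups shared values. Nfkbib stayed between 2 and 4 peaks in all 9 libraries. Of the nuclear IκBs, Nfkbid had 6, 4 and 5 peaks under DMSO, 5, 7 and 7 under LPS, and 9, 8 and 9 under LPS+Skatole, the last above every other library. Nfkbiz (2 to 7 peaks) and Bcl3 (3 to 6 peaks) overlapped between all groups. Of the ubiquitin regulators, Tnfaip3 had 3, 5 and 5 peaks under DMSO, 7, 6 and 6 under LPS, and 10, 7 and 4 under LPS+Skatole. Tnip1 had 5, 9 and 6 peaks under DMSO, 7, 11 and 9 under LPS, and 10, 14 and 10 under LPS+Skatole. Tnip3 had 3, 9 and 7, then 9, 10 and 10, then 11, 10 and 15. Cyld had 2 to 7 peaks, with overlap between all groups.

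The counts without overlap were read against all genes. Under LPS, 2 of the 10 genes (Nfkbie and Tnfaip3) had more peaks than under DMSO with no overlap, and 10.9% of all genes did; none had fewer, as 0.324% of all genes did. Under LPS+Skatole, 1 of the 10 (Nfkbid) had more peaks than under LPS with no overlap, beside 8.11% of all genes, and none had fewer, beside 0.69%. Against DMSO, 3 of the 10 (Nfkbid, Tnip1 and Tnip3) had more, beside 22.7% of all genes, and none had fewer, beside 0.155%. For each such gene the exact two-sided permutation test gave p = 0.1, the smallest value that 3 libraries against 3 allow. With lists of equal length none of the 10 had more peaks without overlap under LPS than under DMSO, beside 2.43% of all genes, nor under LPS+Skatole than under DMSO, beside 2.8%. In such lists Nfkbid overlapped between LPS+Skatole and LPS (4, 4 and 6 under LPS, 5, 6 and 7 under LPS+Skatole). Tnip3 had more peaks under LPS+Skatole without overlap (6, 8 and 9, against 4, 5 and 5 under LPS), as did 1.37% of all genes, and Tnfaip3 had fewer (4 in each library, against 5, 5 and 6), as did 1.77%.

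The summits over the start sites were sharply placed at some genes and not at others. At Nfkbib the nearest summit lay 68 to 114 bp after the start in all 9 libraries. At Tnfaip3 it lay between 100 bp before and 106 bp after the start, with a median of 15 bp after it and 22.5 bp from the centre of a κB match. At Tnip3 the range was 71 bp before to 215 bp after the start and the median 5 bp after it, 54.5 bp from a κB match. At Cyld all 9 summits lay before the start, by 54 to 220 bp, at a median of 56.5 bp from the κB match.

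**Figure D2:**
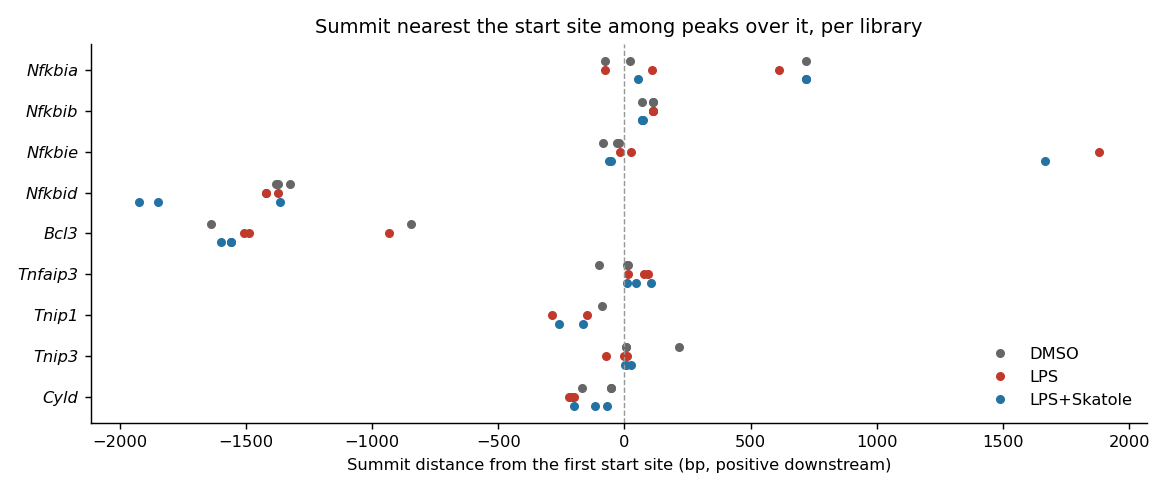
Distance of the summit nearest the first start site from that start (horizontal axis, bp, positive downstream), among peaks over the promoter window, with a point per library coloured by group. At Tnfaip3, Tnip3, Cyld and Nfkbib all points lie within 220 bp of the start, whereas at Nfkbid and Bcl3 they lie upstream, by 845 to 1923 bp.

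Nfkbia and Nfkbie were less uniform. At Nfkbia the nearest summit ranged from 78 bp before to 720 bp after the start (median 111 bp after it). At Nfkbie 7 of 9 libraries had the summit between 83 bp before and 25 bp after the start, while LPS library 2 and LPS+Skatole library 3 had it 1882 and 1665 bp after. At Tnip1 the 5 libraries with a peak over the start had its summit 89 to 286 bp before it. At Nfkbid the summit lay 1326 to 1923 bp before the first start, inside the neighbouring genes' stretch of Hcst and Tyrobp (adaptors of myeloid and lymphoid receptors). Bcl3 had its summits 845 to 1638 bp before the start. Positions were also compared between groups, a comparison added after the data were seen and given without a test. Of the 7 genes with a peak over the start in all 6 libraries, 3 had LPS and DMSO positions that did not overlap (Nfkbie, Tnfaip3 and Cyld), beside 8.36% of 5334 genes. At Nfkbie the summits lay 22, 30 and 83 bp before the start under DMSO, and 18 bp before and 1882 and 25 bp after it under LPS, a gap of 4 bp between the nearest libraries. At Tnfaip3 the summits lay 100 bp before and 13 and 10 bp after the start under DMSO, and 78, 95 and 15 bp after it under LPS. At Cyld they lay 55, 54 and 168 bp before the start under DMSO and 220, 200 and 207 bp before it under LPS. The Tnfaip3 gap was 2 bp wide, between 13 and 15 bp. Between LPS+Skatole and LPS, 2 of 8 genes did not overlap (Nfkbib and Bcl3), beside 9.2% of 5566 genes, and between LPS+Skatole and DMSO none of 7, beside 9.46% of 5252 genes.

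For the amount of binding, each gene was described by its leading region, the one with the highest place averaged over the 9 lists. The value is the summit enrichment, the fragment count recovered at the summit divided by the genome background of the library. The gene table has no exons, so regions are placed in the gene body or its flanks only.

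**Figure D3:**
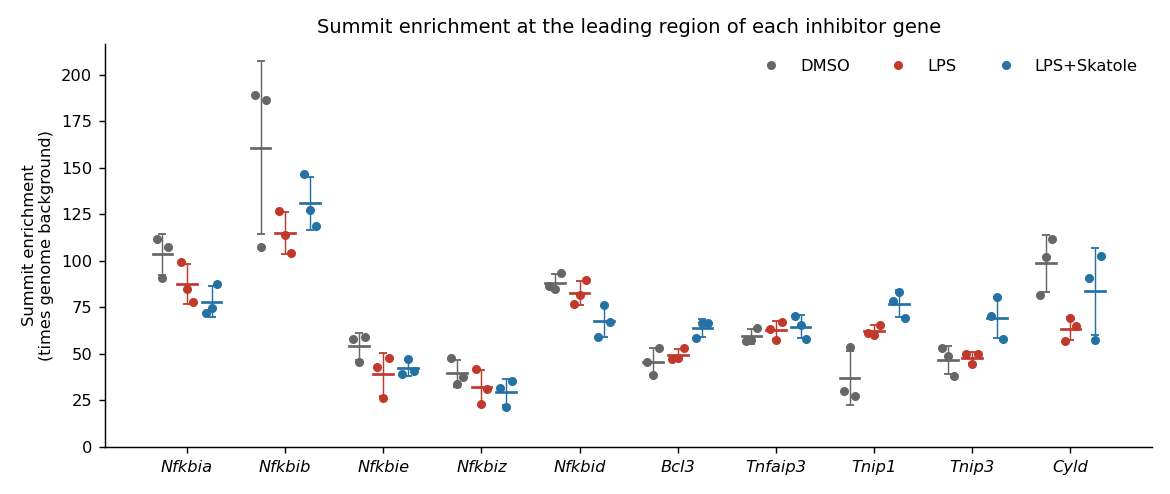
Summit enrichment at the leading region of each gene, in multiples of the library's genome background (vertical axis, before centring), with a point per library, a bar for the mean and whiskers for the SD (n = 3). Nfkbib is highest in every group, and the Tnip1 values of the LPS and LPS+Skatole libraries lie above all 3 DMSO values.

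Nfkbib, which encodes IκBβ, held the strongest binding of the 10 genes, at chr7:28764187-28767723 over its start site. The same region covers the start of Sirt2, a deacetylase gene on the other side, and signal for one cannot be told apart from signal for the other. Summit counts were 206, 150 and 253 under DMSO, 291, 254 and 244 under LPS, and 343, 288 and 284 under LPS+Skatole. Enrichment was 161 ± 46.4 (SD, n = 3), 115 ± 11.4 and 131 ± 14.3, and the groups overlapped. In every list this peak stood within the top 0.334%, and in LPS+Skatole library 1 within the top 0.0242%.

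Nfkbia encodes IκBα, the main inhibitor that is destroyed and remade after LPS. Its leading region, chr12:55489754-55496675, spans the gene and the sequence before it. Summit counts were 122, 127 and 146 under DMSO, 228, 189 and 183 under LPS, and 168, 169 and 210 under LPS+Skatole. Relative to background the means were 103 ± 11.1, 87.5 ± 10.9 and 78.1 ± 8.45, with overlap between LPS and both other groups. Nfkbie, which encodes IκBε, had its leading region at the start site, chr17:45554244-45558540, with counts of 63, 64 and 80, then 99, 58 and 112, then 92, 107 and 98. Its enrichment was 54.2 ± 7.28 under DMSO, 39 ± 11.4 under LPS and 42.5 ± 4.24 under LPS+Skatole, and LPS overlapped both.

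For the nuclear IκBs, the leading region of Nfkbiz (IκBζ, a coactivator of secondary inflammatory genes) was chr16:55836031-55839918 in the gene body. Its counts were 52, 47 and 51 under DMSO, 96, 51 and 73 under LPS, and 74, 49 and 85 under LPS+Skatole, or 39.6 ± 7.29, 32 ± 9.49 and 29.6 ± 7.13 times background. These values overlapped between all groups. That of Nfkbid (IκBNS), chr7:30416783-30424445, covers its starts and also Hcst and part of Tyrobp, so the signal cannot be assigned to one of the 3 genes. Its counts were 94, 119 and 127 under DMSO, 176, 182 and 210 under LPS, and 138, 172 and 161 under LPS+Skatole. Relative to background it measured 88.3 ± 4.53, 82.7 ± 6.49 and 67.4 ± 8.55, and every LPS+Skatole library (59 to 76.1) lay below every LPS library (76.7 to 89.6). Bcl3, an IκB that works with p50 and p52 homodimers, was led by a region 8177 bp before its start, chr7:19830183-19833078, near the predicted gene Gm34891. Counts there were 50, 54 and 72, then 109, 106 and 124, then 137, 151 and 159, or 45.8 ± 7.19, 49.3 ± 3.08 and 63.9 ± 4.65 times background, with LPS+Skatole above both other groups without overlap. After centring (below), the difference from LPS was 0.05 on the log2 scale (95% interval −0.34 to 0.44, limma adjusted p = 0.942).

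Tnfaip3 encodes A20, an enzyme that edits ubiquitin chains on signalling intermediates. Its leading region at the start site, chr10:19014428-19016196, held counts of 62, 80 and 87 under DMSO, 146, 128 and 157 under LPS, and 165, 148 and 139 under LPS+Skatole. Relative to background these were nearly level, at 59.4 ± 4.03, 62.7 ± 4.8 and 64.7 ± 6.28. A second region in the gene body, chr10:19007469-19010510, with a median summit 5897 bp after the first start, differed more. There the counts were 35, 29 and 66 under DMSO, 153, 93 and 117 under LPS, and 130, 184 and 144 under LPS+Skatole, or 33.8 ± 14, 52.8 ± 12.7 and 65.7 ± 13.8 times background. DMSO library 3 (48.6) exceeded LPS library 2 (41.8), while all LPS+Skatole libraries (55.6 to 81.4) exceeded all DMSO libraries. A further region, beyond the end of the gene at chr10:18994923-18997563, was singled out after its values were seen: 1 of 3 DMSO libraries had a peak there, with a count of 10, and all LPS (70, 70 and 56) and LPS+Skatole libraries (93, 71 and 87) had one.

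Tnip1 (ABIN1) and Tnip3 (ABIN3) bind A20 and ubiquitin chains. The leading region of Tnip1, chr11:54932207-54937245, lies in the gene body at a median of 28460 bp after the start. Its strongest summit changed place between libraries. Under DMSO it lay at 28460 bp in library 1 and 28489 bp in library 2, and library 3 had equal summits at 26295 and 28293 bp. Under LPS it lay at 28489, 28524 and 26428 bp, and under LPS+Skatole at 26629, 28589 and 26691 bp. Differences at this region therefore compare, in part, summits at different positions. Counts were 33, 75 and 37 under DMSO, 141, 134 and 154 under LPS, and 184, 188 and 166 under LPS+Skatole. Enrichment was 30.3, 53.6 and 27.2 under DMSO, 61.5, 60.2 and 65.7 under LPS, and 78.6, 83.2 and 69.3 under LPS+Skatole, and the 3 groups did not overlap. After centring, the Tnip1 difference between LPS+Skatole and LPS was −0.02 on the log2 scale (95% interval −0.38 to 0.34, limma adjusted p = 0.981). Tnip3 was led by its start site, chr6:65589776-65590912, with counts of 58, 68 and 52, then 114, 99 and 117, then 164, 182 and 139. Its enrichment was 46.7 ± 7.66 under DMSO, 48 ± 3.07 under LPS and 69.5 ± 11.2 under LPS+Skatole, the last above all LPS and DMSO libraries. After centring, its difference between LPS+Skatole and LPS was 0.20 on the log2 scale (95% interval −0.19 to 0.60, limma adjusted p = 0.719). Cyld, which removes linear and lysine-63 ubiquitin chains, was led by its start site, chr8:88693882-88699242, with counts of 89, 143 and 152 under DMSO, 130, 154 and 152 under LPS, and 212, 130 and 246 under LPS+Skatole. Every LPS library (56.7 to 69.2 times background) lay below every DMSO library (81.7 to 112), and LPS+Skatole (83.6 ± 23.4) overlapped both.

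These enrichments were tested with limma on the log2 scale after centring each library on its median, over all regions called in all 6 libraries of a pair, with Benjamini-Hochberg adjustment over those regions. Without centring the median difference over all regions was −0.24 for LPS against DMSO, 0.27 for LPS+Skatole against LPS and −0.01 for LPS+Skatole against DMSO. Centring is one constant for each pair: without it every log2 difference below would be lower by 0.22, higher by 0.32 and higher by 0.08 in the same order. Centring also sets the balance of calls: over all regions, LPS against DMSO gave 145 higher and 62 lower with centring and 87 higher and 616 lower without, and LPS+Skatole against LPS gave 14 and 32 with centring and 742 and 14 without. For LPS+Skatole against DMSO the calls were 453 and 506 with centring and 571 and 281 without.

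For LPS against DMSO, 20 regions of the 10 genes were tested. The region in Tnip1 was higher under LPS, by 1.04 on the log2 scale (SE 0.234, limma adjusted p = 0.0209), a factor of 2.06, and 1.01% of all 14394 regions were called higher. None of the 20 was lower, against 0.431% of all regions. An unadjusted p under 0.05 was found at 4 of the 20, and at 14.4% of all regions. The Tnip1 call was lost on leaving out 5 of the 6 libraries in turn: its adjusted p was 0.0533 without DMSO library 1, 0.0838 without DMSO library 3 and 0.0731, 0.0622 and 0.0921 without LPS library 1, 2 or 3, whereas it was 0.00227 without DMSO library 2. The differences in the 5 fits that lost the call were 0.93, 0.85, 1.03, 1.06 and 1.03 in the same order, and 1.34 without DMSO library 2. On the authors' fold, which uses the local background, the difference was 0.93 with an adjusted p of 0.329. With regions built from summits this stretch fell into 4 regions, none called in all 6 libraries, so the Tnip1 difference was not tested there and the call was not made.

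**Figure D4:**
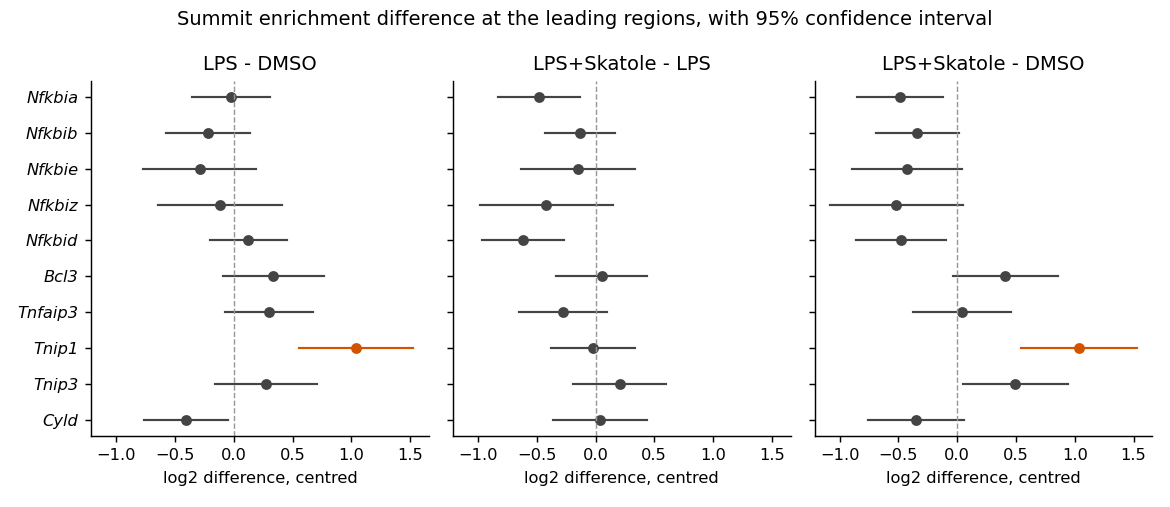
Centred log2 difference in summit enrichment (horizontal axis) at the leading region of each gene for 3 pairs of groups, with limma's 95% confidence interval. Orange marks an adjusted p under 0.05, which among these regions Tnip1 alone reached, in both comparisons with DMSO.

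The body region of Tnfaip3 differed by 0.92 (SE 0.268, limma adjusted p = 0.0794), a region in the body of Bcl3 at chr7:19816092-19819283 by 0.77 (SE 0.212, limma adjusted p = 0.0647), and the start region of Cyld by −0.41 (SE 0.173, limma adjusted p = 0.27), and none of the 3 passed. The Tnfaip3 region did pass with regions built from summits (0.92, limma adjusted p = 0.0341) and without DMSO library 3 (1.22, limma adjusted p = 0.026). Its difference was 0.61 without DMSO library 2 (limma adjusted p = 0.287) and 0.72 without LPS library 1 (limma adjusted p = 0.321). On the authors' fold the Tnfaip3 difference was 0.82 (limma adjusted p = 0.376). Without centring the Cyld difference was −0.63, with a limma adjusted p of 0.0386. On the authors' fold it had the opposite sign, at 0.09, with a limma adjusted p of 0.933. At the Bcl3 region, named for its unadjusted p, counts were 41, 50 and 46 under DMSO, 109, 113 and 138 under LPS, and 104, 122 and 131 under LPS+Skatole. The start regions of Nfkbia (−0.02, 95% interval −0.36 to 0.31), Tnfaip3 (0.30, −0.08 to 0.67) and Tnip3 (0.27, −0.16 to 0.70) had intervals that include no difference. The median over the 20 regions was 0.10, with 14 positive and 6 negative, beside −0.02 over all regions. Without centring the median was −0.12 and 8 of the 20 were positive.

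For LPS+Skatole against LPS, 28 regions were tested and none was called in either direction, where 0.0707% of all 19799 regions were higher and 0.162% lower. Of the 28, 5 had an unadjusted p under 0.05 by limma, as did 12.3% of all regions. Lower under LPS+Skatole, though not past the adjusted threshold, were the leading regions of Nfkbid (−0.62, SE 0.173, limma adjusted p = 0.126) and Nfkbia (−0.48, SE 0.17, limma adjusted p = 0.218). The same held for a body region of Tnip1 at chr11:54955485-54957274 (−0.73, SE 0.229, limma adjusted p = 0.165) and a region beyond Nfkbie over Slc35b2 at chr17:45566366-45567081 (−0.70, SE 0.323, limma adjusted p = 0.362). Higher was a region in the body of Tnip3, chr6:65591745-65593022 (0.91, SE 0.286, limma adjusted p = 0.165). Without centring that Tnip3 difference was 1.23, with a limma adjusted p of 0.0179. At the leading region of Tnip1 the difference was −0.02 with a 95% interval of −0.38 to 0.34, and at the body region of Tnfaip3 0.0034 with −0.42 to 0.43. The 28 regions had a median of −0.13, with 10 positive, beside −0.05 over all regions, and without centring the median was 0.19, with 17 positive, so its sign rests on the scaling.

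For LPS+Skatole against DMSO, 21 regions were tested and 2 were higher, beside 3.12% of all 14504 regions. They were the leading region of Tnip1, by 1.04 (SE 0.243, limma adjusted p = 0.00833), and the body region of Tnfaip3, by 0.94 (SE 0.266, limma adjusted p = 0.0292). None of the 21 was lower, beside 3.49% of all regions, and 7 had an unadjusted p under 0.05 by limma, as did 21.8% of all regions. The other 5 of these 7 did not pass the adjusted threshold. Below DMSO were the leading regions of Nfkbia (−0.49, SE 0.178, limma adjusted p = 0.0939) and Nfkbid (−0.48, SE 0.188, limma adjusted p = 0.122). So were the Tnip1 body region at chr11:54955485-54957274 (−0.64, limma adjusted p = 0.0987) and a region before Nfkbid over Tyrobp at chr7:30412793-30414944 (−0.49, limma adjusted p = 0.197). Above DMSO was the start region of Tnip3 (0.49, limma adjusted p = 0.179). The median over the 21 regions was −0.04, with 9 positive and 12 negative, beside −0.09 over all regions, and without centring it was 0.04, with 11 positive. Neither call was made on the authors' fold. There Tnip1 differed by 0.67 (limma adjusted p = 0.53) and Tnfaip3 by 0.84 (limma adjusted p = 0.251). Neither could be tested with regions built from summits, which left no summit region of either called in all 6 libraries. The Tnfaip3 call was lost without DMSO library 1 or 2 and without LPS+Skatole library 2 or 3 (adjusted p of 0.0626, 0.17, 0.141 and 0.0751), and the Tnip1 call was lost without DMSO library 3 (0.0501). The Tnfaip3 differences in these fits were 0.94, 0.64, 0.79 and 0.99 in the same order, and the Tnip1 difference was 0.85. This comparison and the one of LPS with DMSO use the same DMSO libraries.

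Presence and absence gave a shorter list. A region was gained when all 3 libraries of the first group and none of the other had a peak in it, and lost in the reverse case. Of 97 regions called in LPS or DMSO libraries, 3 were gained under LPS, beside 1.65% of all regions, and none was lost, beside 0.0685%. They lay beyond the end of Nfkbid (chr7:30431517-30432080), beside Nfkbiz (chr16:55809400-55811230) and in the body of Tnip3 (chr6:65591745-65593022). Summit counts under LPS were 21, 25 and 23 at the first, 27, 28 and 29 at the second and 33 in each library at the Tnip3 region. Under LPS+Skatole 2 of 3 libraries had a peak at each of the first 2 (26 and 28 at Nfkbid, 31 and 22 at Nfkbiz), while all 3 had one at the Tnip3 region, with counts of 72, 78 and 88. At that region enrichment was 14.4 ± 0.376 under LPS and 34 ± 3.02 under LPS+Skatole, without overlap. The DMSO lists give no value there, and how large a DMSO summit could have gone unlisted at this region is unknown.

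**Figure D5:**
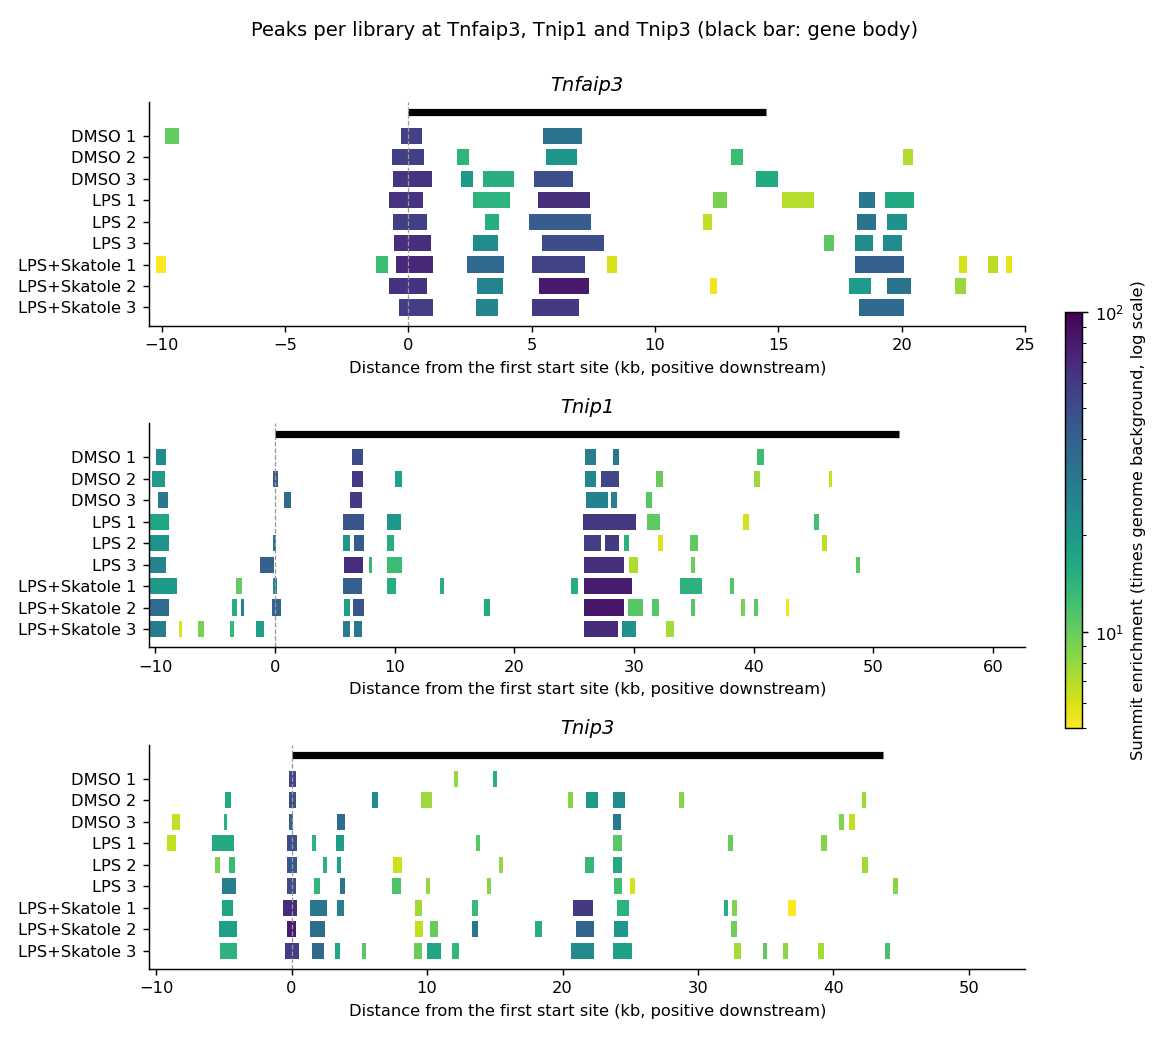
Peaks in each library at Tnfaip3, Tnip1 and Tnip3, placed by distance from the first start site (horizontal axis, kb, positive downstream) and coloured by summit enrichment on a log scale, with the gene body as a black bar. At Tnfaip3 the region beyond the end of the gene that was singled out holds peaks in all LPS and LPS+Skatole libraries and in 1 DMSO library, and at Tnip1 the darkest peaks lie in the gene body.

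Between LPS+Skatole and LPS, 1 of 122 regions was gained, beside 0.583% of all regions, and none was lost, beside 0.129%. It lay 3087 bp before the start of Tnip1 (chr11:54965526-54966700), with counts of 24, 62 and 32. Between LPS+Skatole and DMSO, 3 of 117 regions were gained, beside 2.36% of all regions: the same Tnip1 region, the Tnip3 region above and a further one in the body of Tnip3 (chr6:65622618-65623550; counts 21, 22 and 18, and 23 in 1 LPS library). One more Tnip3 region was picked out after its values were seen, at chr6:65610775-65613037. It had a count of 27 in 1 DMSO library and of 30 in 1 LPS library, and of 142, 86 and 58 under LPS+Skatole.

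The place of a gene's best peak in its list, in percent from the top, was compared in the same way, between lists of unequal length. The mean place of Tnip3 went from 19.6 ± 5.21 under DMSO to 8.25 ± 1.28 under LPS and 3.41 ± 2.24 under LPS+Skatole, with no overlap at either step. Tnip1 went from 8.79 ± 3.12 to 1.46 ± 1.02 and 1.39 ± 1.5, and Tnfaip3 from 6.74 ± 1.31 to 2.19 ± 0.766 and 1.98 ± 0.868. Nearer the top under LPS than under DMSO without overlap were 5 of the 10 genes (Nfkbid, Bcl3, Tnfaip3, Tnip1 and Tnip3), beside 19.9% of all 11958 genes compared. Between LPS+Skatole and LPS, 1 of the 10 (Tnip3) was nearer, beside 15% of 13229 genes, and none was further, beside 3.04%. Against DMSO, 3 of the 10 (Tnfaip3, Tnip1 and Tnip3) were nearer, beside 31.6%. Each of these differences had an exact permutation p of 0.1. Counted in peaks from the top in place of percent, 3 genes (Nfkbid, Tnfaip3 and Tnip1) were nearer under LPS than under DMSO, beside 7.08% of all genes, and 1 (Cyld) was further, beside 10%. None was nearer under LPS+Skatole than under LPS by that count, beside 5.68%.

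Other genes of the pathway were described from lists of 55 genes: receptors and adaptors, kinases, NF-κB subunits, output genes, and further ubiquitin editors. Of these, 47 had a peak in all 9 libraries. By limma, 6 of 45 genes with a tested region had one called higher under LPS than under DMSO, beside 1.16% of all genes with a tested region, and none had one called lower, beside 0.774%. A single region that overlaps the windows of both chemokine genes Cxcl1 and Cxcl2 counted for both, higher by 1.82 (SE 0.247, limma adjusted p = 5.48e-05). A region at Nfkb1, which encodes the p105 precursor of p50, was higher by 1.68 (limma adjusted p = 0.000194) and one at Nos2, the inducible nitric oxide synthase gene, by 1.79 (limma adjusted p = 0.00022). Il1a, the interleukin-1α gene, was higher by 1.11 (limma adjusted p = 0.038). The last of the 6 was Tnip2, which encodes a relative of the Tnip1 and Tnip3 proteins, with 1.08 (limma adjusted p = 0.0423). Between LPS+Skatole and LPS none of 50 genes had a region called in either direction, beside 0.134% of all genes higher and 0.37% lower, and 13 had one with an unadjusted p under 0.05 by limma, as did 24.1% of all genes with a tested region. Between LPS+Skatole and DMSO, 7 of 45 had a higher region, beside 3.41% of all genes, among them Nfkb1 (1.82, limma adjusted p = 1.64e-05) and Tnip2 (1.18, limma adjusted p = 0.0094), and 2 had a lower one, beside 7.37%, Traf3 (−0.90, limma adjusted p = 0.0182) and Map3k7 (−0.95, limma adjusted p = 0.0211). The 7 genes include pairs of chemokine genes that share a single region, so the regions are fewer than the genes. Tnip2, Traf3 (an adaptor) and Map3k7 (the kinase TAK1) are named here with their values already seen. By number of peaks, 11 of the 55 genes had more under LPS than under DMSO without overlap, beside the 10.9% of all genes above, and none fewer, beside 0.324%. Under LPS+Skatole 3 had more than under LPS, beside 8.11%, and 1 fewer, beside 0.69%. Against DMSO 23 had more, beside 22.7%, and none fewer, beside 0.155%.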

How the data were processed

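CUT&Tag peak lists of 9 libraries were used, one per library, as the authors called and deposited them. The submitters' processing notes name the build mm10, fastp 0.20.1, HISAT2 2.1.0 and StringTie 2.0; the peak caller is not given in the sources used here. Per the file values, each list ends at a deposited −log10 p just above 5, and the deposited score is the whole part of 10 times it. The lists also hold the authors' −log10 q and a fold, the ratio of summit to local background. Whole summit counts were recovered from the deposited fold and −log10 p under a Poisson model (whole to within 0.05 for at least 99.99% of peaks), and the background most common in a list was taken as its depth. Recovery and limma were tested on simulated data. Only chromosomes 1 to 19, X and Y entered (424 rows elsewhere were left out), and peaks that shared 1 bp were merged into regions. RefSeq gene positions and promoters are of GRCm38.p6, which is mm10. Groups follow the labels. Peak numbers and places were compared by exact two-sided permutation tests, and log2 enrichments by limma 3.58.1 in R 4.3.3 (trend, adjusted p under 0.05). Libraries with the same replicate number did not deviate together (r from −0.00963 to 0.0141 over 13824 regions), so the main fits have no block. The members and lists were chosen with earlier results of these data known. Named were the leading region of each gene, every region gained, lost or called, and at most 5 pathway genes per comparison. Other windows, thresholds, scalings, region definitions and left-out libraries were tried. Total reads and the Blank sample were not used. Depth here sets the counting error and also how strong a summit must be to be listed.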

Additional observations from a re-analysis of the deposited data

How the results depend on the processing

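Over the 3 comparisons 344 headline values, such as counts of genes, were recomputed under other settings. Of these, 266 stayed within the replicate spread or 1.5 times the count, 78 moved and 0 reversed. A count could by its rule only stay or move, never reverse. Counts of 0 under both settings were taken as staying. Differences at single genes and regions were not among them, and some changed sign. The Cyld start region went from −0.41 to 0.09 on the authors' fold for LPS against DMSO. Without centring, the median over tested regions of the inhibitor genes also changed sign. It went from 0.10 to −0.12 for LPS against DMSO and from −0.13 to 0.19 for LPS+Skatole against LPS. For LPS+Skatole against DMSO it went from −0.04 to 0.04. The cause of a move was not tested. Counts below follow the order LPS against DMSO, LPS+Skatole against LPS, LPS+Skatole against DMSO where 3 are given, and sets of 3 libraries limit every test.

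Lists cut to equal length brought the ratios of peaks at the 10 genes to 1.03, 1.01 and 1.04. Against DMSO, genes with more peaks were then 0 under LPS and 0 under LPS+Skatole, and 1 gene had fewer under LPS+Skatole than under LPS. Genes with more peaks under LPS than under DMSO numbered 0 in a window of 3 kb (with 1 gene having fewer), 0 in the gene body alone, 1 by summits inside the window and 1 with summits of at least 8 times the background. A window of 50 kb gave 5, 2 and 6 genes with more peaks. For these other windows and summit rules there is no share of all genes to read the counts against. By place in the list counted in peaks, 3 genes were nearer the top under LPS than under DMSO and 1 further, and 0 were nearer under LPS+Skatole than under LPS. Ranked by fold, 3 were nearer under LPS, without a share of all genes for that ranking.

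By limma, the authors' fold gave 0 higher regions of the 10 genes for LPS and 0 for LPS+Skatole against DMSO, with 1 pathway gene higher for LPS, and 0 higher and 0 lower for LPS+Skatole. Without centring, 1 region of the 10 genes (at Cyld) and 4 pathway genes were lower under LPS, and 1 region (in the body of Tnip3) and 4 pathway genes were higher under LPS+Skatole than under LPS. For LPS+Skatole against DMSO, regions built from summits left 0 higher regions of the 10 genes (those of Tnip1 and Tnfaip3 were not tested in this comparison) and 3 higher and 0 lower pathway genes. For LPS+Skatole against LPS they gave 1 lower pathway gene. Quantile normalization left 1 lower pathway gene for LPS+Skatole against DMSO.

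Asking for 2 of 3 libraries gave 9, 8 and 15 gained and, for the first and second comparison, 1 and 4 lost regions. No share of all regions under this looser rule is given, and the shares above belong to the stricter one. Equal lists gave 1 lost region under LPS, 2 gained against LPS and 1 gained for LPS+Skatole against DMSO; regions from summits gave 2 gained and 1 lost against LPS.

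Over all regions the main counts of higher and lower calls were 145 and 62, 14 and 32, and 453 and 506. They were 15 and 7, 3 and 3, and 46 and 10 on the authors' fold, 87 and 616, 742 and 14, and 571 and 281 without centring, and 36, 13 and 187 lower under quantile normalization. Regions from summits gave 24 higher against LPS. Leaving out 1 library brought the higher and lower counts over all regions as low as 52 and 34, 3 and 8, and 170 and 227. For LPS+Skatole against LPS they also rose to 16 and 35, without LPS+Skatole library 1. The replicate block, for numbers that do not pair the libraries, gave 122 and 53, 26 and 48, and 417 and 493 over all regions. With the replicate block, genes with more peaks (every same-numbered difference positive, smallest exact sign-flip p of 0.25) were 5, 3 and 3, and the block changed no limma call at the 10 genes. These gene counts have no share of all genes under the same rule beside them. Not every LPS or LPS+Skatole library correlated best with its own number.

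Leaving out one library at a time, genes with more peaks numbered 2 to 5, 1 to 3 and 3 to 6, and with fewer peaks 0 to 1 for LPS+Skatole against LPS. The rule of no overlap is easier to meet with a library left out. The counts of genes in this paragraph have no share of all genes beside them, since the shares above belong to complete groups. Genes nearer the top were 1 to 2 for LPS+Skatole against LPS and 3 to 5 against DMSO, and genes further from it 0 to 1 in each comparison. Regions of the 10 genes called higher were 0 to 1 for LPS and 1 to 2 for LPS+Skatole against DMSO, where 0 to 1 were lower. Pathway genes were 4 to 7 higher and 0 to 1 lower for LPS+Skatole against DMSO. Depth set a limit: a summit under 4.59 to 7.34 times the background was not detectable, and higher ones can be missing where the local background is higher.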
